A study of Mus musculus with 18 samples.

Results

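CD103+ dendritic cells (DCs) of the intestinal lymph node were compared with CD103+ DCs of the small intestinal lamina propria. The comparison was of 6 RNA-seq libraries, 3 per tissue, chosen by the cell type and tissue that the labels give them, out of 18 libraries of mouse intestinal DCs. The other 12 libraries were of CD11b+ DCs and of DCs positive for both CD11b and CD103, here called double-positive, 3 per tissue each, and they entered the shared fit and the tests of whether the tissue difference was larger or smaller in CD103+ DCs. All 18 libraries came from C57BL/6J mice with the genotype CD11a KO, so both sides of the comparison carried the knockout and no wild-type library was analysed here. The protocol text that all samples share covers mice at steady state and mice infected with Salmonella, and no label assigns an infection to these libraries. The sources used here do not say whether the 3 libraries of a group came from separate animals, at what age they were taken, or how the lymph node DCs were gated, so p-values measure the spread between these libraries, which may be technical. The gate given for the study's lamina propria DCs was that of live single CD45+ CD64- cells, high for MHC class II and positive for CD11c.

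CD103 is the integrin chain αE, which pairs with β7 and binds E-cadherin. CD103+ CD11b- DCs of the intestine belong to the cDC1 lineage, which depends on the transcription factors IRF8 and BATF3, takes up dead cells through CLEC9A, and presents their antigens on MHC class I to CD8 T cells. A DC that leaves the lamina propria switches on CCR7, follows its ligands CCL19 and CCL21 through the afferent lymph to the draining node and, in the course of this maturation, changes from antigen capture to antigen display and T cell contact. Lymph nodes also hold resident DCs that come from the blood and never were in the intestine, and among them the cDC1 carry CD8α.

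The total count of the 6 libraries lay between 23999555 and 46901985. Correlations of log2 CPM were between 0.971 and 0.981 for libraries of the same tissue and between 0.849 and 0.861 for libraries of different tissues. CPM, the unit of all levels below, is the count scaled to library size with TMM factors. Itgal, which encodes CD11a, was read in each library, at 25, 26.6 and 21.4 CPM in the lamina propria and 12.7, 6.45 and 6.84 CPM in the lymph node, with no overlap between tissues and a log2 fold change (lymph node minus lamina propria) of -1.49 ± 0.23. The sources used here do not say which part of the gene was deleted, so its gene-level count is no check of the knockout. Y-linked Ddx3y had 68.9, 64.3 and 64.5 CPM in the lamina propria libraries against 0.083, 0.0843 and 0.351 CPM in the lymph node libraries. Xist, the RNA of the inactive X chromosome, had 0, 0.0645 and 0.286 CPM in the lamina propria against 45.2, 37 and 61.8 CPM in the lymph node. Tissue and the sex of the animals therefore cannot be told apart in these 6 libraries, and a count of changed genes without chromosomes X and Y is given in the closing section. Below, ± after a CPM mean is the SD of 3 libraries and ± after a log2 fold change or a difference of fold changes is its SE.

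Of 17074 genes tested, 5972 (35.0%) differed between the tissues at an adjusted p under 0.01 (edgeR's quasi-likelihood test, Benjamini-Hochberg) and a fold change over 2, and "rose", "fell", "higher" and "lower" below refer to genes past both limits. They were 3386 genes higher in the lymph node (19.8%) and 2586 lower (15.1%). The median absolute log2 fold change of these genes was 2.21. At over 4-fold there were 2215 higher and 1095 lower genes, and at over 16-fold 1107 higher and 284 lower. In 5916 of the 5972 genes the 3 libraries of one tissue did not overlap those of the other, which was also so for 11193 of all genes tested (65.6%). Statements of no overlap for single genes are to be read beside this share. The direction of the majority depended on the scaling. With total counts in place of TMM, 2899 genes were higher and 3231 lower, with a shift of -0.22 in the median log2 fold change over all genes, and 5485 genes were called in the same direction under both. Changes below are relative to the TMM scaling. Counts on gene lists below are to be read beside the 19.8% of all genes tested that were higher and the 15.1% that were lower. Of the 5 sex-linked genes listed, Xist rose and Ddx3y, Eif2s3y, Kdm5d and Uty fell, with a median of -8.04 beside 0.04 over all genes tested. Each of the 3 lymph node libraries, when left out, took the call from all 4 genes that fell. The CD103+ libraries of the tissues did not overlap in any of these genes, but the spread is estimated over all groups of the fit. For Ddx3y the SD was 33.4 CPM in the lymph node CD11b+ and 30.1 CPM in the lymph node double-positive libraries. The part of that spread in the lost calls was not tested.

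**Figure D1:**
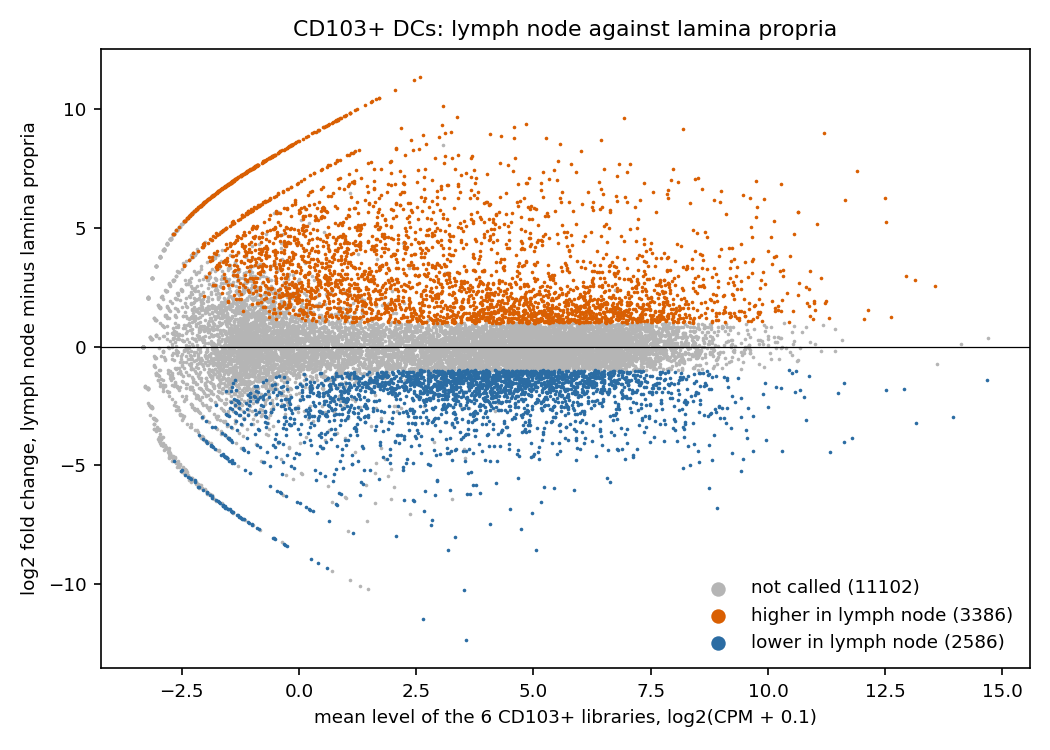
Each point is 1 of the 17074 genes tested, with the mean level of the 6 CD103+ libraries in log2(CPM + 0.1) on the x axis and the log2 fold change, lymph node minus lamina propria, on the y axis. The 3386 genes higher in the lymph node (orange) and the 2586 lower genes (blue) are spread over the whole range of levels, and the points over 16-fold lie more often above 0 (1107 genes) than below (284 genes).

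The genes that define the sorted cells were measured next. Itgae (ENSMUSG00000005947), which encodes CD103, had 1333, 1238 and 1440 CPM in the lamina propria and 40, 39.1 and 27 CPM in the lymph node, a log2 fold change of -5.24 ± 0.34. Its mean in the lymph node CD103+ libraries was 35.4 CPM, against 46.1 ± 4.35 CPM in the double-positive and 5.97 ± 0.593 CPM in the CD11b+ libraries of that tissue. Itgax, which encodes CD11c, fell from 393 ± 48.1 to 86.5 ± 4.8 CPM. Itgam, which encodes CD11b, was at 0.601, 0.839 and 1.26 CPM in the lamina propria and 0.166, 0.886 and 0.263 CPM in the lymph node, against 61.3 ± 6.44 and 20.8 ± 6.26 CPM in the CD11b+ libraries of the same tissues, and it was not called except without the second lymph node library (-2.06). CD11b transcripts were near 0 in CD103+ libraries of both tissues, with the limit that 68.7% of the exon bases of Itgam overlap another annotated gene on the same strand. The list of 5 sort genes also held Ptprc (CD45) and Itgal, the gene of the knockout, which is not part of the gate given above. Of the 5, Itgae, Itgax and Itgal fell and none rose. The median log2 fold change of -1.49 was that of Itgal itself.

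The cDC1 identity genes were present in both tissues and mostly lower in the lymph node. Of 20 listed genes, 14 fell and 1 rose, with a median log2 fold change of -2.79 beside 0.04 over all genes tested. Xcr1, the receptor for XCL1 that marks cDC1, was at 1410, 1399 and 1391 CPM in the lamina propria and 95.2, 103 and 94.9 CPM in the lymph node. Clec9a, the receptor for dead cells, had 262, 216 and 297 CPM and 34, 38.8 and 47.7 CPM, and Irf8, the lineage-defining factor, had 4441, 4969 and 4540 CPM and 1635, 1656 and 1554 CPM. For each of these 3 genes the lowest lamina propria library was above the highest lymph node library. The tissues did not overlap, in either direction, in 65.6% of all genes tested. Wdfy4, which cross-presentation of cell-bound antigen requires, fell from 504 ± 14.9 to 32.3 ± 6.98 CPM, and Naaa, a lysosomal amidase that is abundant in cDC1, fell from 2420 ± 154 to 114 ± 16.9 CPM. Not all of the identity genes fell. Id2, an inhibitor of E-protein factors that cDC1 development needs, rose from 1044 ± 50.5 to 3087 ± 483 CPM. Batf3 had 143, 156 and 145 CPM in the lamina propria and 145, 142 and 182 CPM in the lymph node, Cd8a had 166, 200 and 221 CPM and 151, 160 and 109 CPM, and neither was called. T cells also make Cd8a, their markers were higher in the lymph node libraries (below), and their part in its level was not tested. Flt3, the receptor for the DC growth factor FLT3L, had 624 ± 36.5 and 1032 ± 32.1 CPM and did not pass the fold threshold.

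By their summed level, the same 20 genes set the subsets apart less in the lymph node than in the lamina propria. Their summed level was 21150 to 21918 CPM in lamina propria CD103+ libraries, against 2072 to 2361 CPM in the CD11b+ and 2655 to 2768 CPM in the double-positive libraries of that tissue. In the lymph node it was 7021 to 7679 CPM in the CD103+, 2883 to 3436 CPM in the CD11b+ and 5234 to 6123 CPM in the double-positive libraries. Xcr1, for example, had 75.5 ± 19.4 CPM in the lymph node double-positive libraries beside 97.6 ± 4.39 CPM in the CD103+ libraries. The largest member of the lymph node sums was Id2, with means of 3087 CPM in CD103+, 881 CPM in CD11b+ and 2844 CPM in double-positive libraries. In the lamina propria Id2 had 1044, 300 and 570 CPM, so part of the narrowing of the sums lay in this gene. Whether cells of another subset in a sort contributed to these levels was not tested. The cDC2 markers, listed for the CD11b+ lineage, went both ways in CD103+ DCs, with 3 of 12 higher, 4 lower and a median of -0.03. Clec12a, 1 of the 4, did not mark that lineage here. In the lamina propria it had 195 ± 9.11 CPM in CD103+, 85.9 ± 26.7 CPM in CD11b+ and 49.7 ± 12 CPM in double-positive libraries. Irf4, the main cDC2 factor, rose from 5.52 ± 0.459 to 26.6 ± 4.76 CPM and Sirpa, a cDC2 surface receptor, from 4.63 ± 0.19 to 14.9 ± 0.602 CPM, while the lectin Mgl2 fell from 24.8 ± 15 to 1.1 ± 0.344 CPM.

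The most abundant transcripts per length of exon were shared in part. In lamina propria CD103+ DCs the highest levels per kilobase were those of Cd74, the invariant chain of MHC class II, Tmsb4x, an actin-binding peptide, Cst3, the protease inhibitor cystatin C, H2-Ab1, Actb, the lysosomal saposin precursor Psap, H2-Eb1 and H2-Aa. Cd74 stood at 22679 CPM per kb there and H2-Ab1 at 10822 CPM per kb. In the lymph node the first 8 were Tmsb4x, B2m, Cd74, H2-D1, the long noncoding RNA AW112010, Cst3, Actb and Gm23935, which is annotated as a miRNA. Gm23935 spans only chr16:11144125-11144181 and had a mean of 341 CPM in the lymph node, so its place depends on division by a very short length. B2m, the light chain of MHC class I, had 18343 CPM per kb and AW112010 had 7891 CPM per kb. Psap, present in the lamina propria list and not in that of the lymph node, had 17189, 16335 and 16100 CPM in the lamina propria and 1658, 2107 and 1547 CPM in the lymph node. AW112010, present in the lymph node list alone, went from 91.2, 73.5 and 100 CPM to 5788, 5940 and 7304 CPM. MHC class II genes and the invariant chain made up 4 of the first 8 in the lamina propria and 1 of the first 8 in the lymph node, where B2m and H2-D1 of class I were 2 of the 8.

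Among the 12 largest rises were genes with almost no read in the lamina propria. Atcay, a brain-type lipid-binding protein also called caytaxin, had no count in the lamina propria libraries and 10.2, 12.4 and 12.4 CPM in the lymph node, at least 386-fold higher against a floor of 3 counts over the group. The unclassified transcript Gm37711 likewise had no count there and 11, 9.32 and 12 CPM in the lymph node, at least 356-fold higher. Insm1, a zinc-finger factor of neuroendocrine cells, went from 0.248, 0.172 and 0.571 CPM to 255, 238 and 240 CPM, a log2 fold change of 9.66 ± 0.29. Clu, the secreted chaperone clusterin, went from 1.38, 1.08 and 0.449 CPM to 542, 583 and 631 CPM. Ccl5, the chemokine RANTES, had the highest level of the 12, with 14.7, 5.83 and 7.34 CPM in the lamina propria, 4265, 4119 and 5737 CPM in the lymph node and a log2 fold change of 9.0 ± 0.36. The lymph node libraries of each of these genes differed by less than 1.5 times. The remaining 7 were the collagen-tail gene Colq, the ankyrin-repeat gene Ankrd35, the secreted factor Ndnf, the hexosamine enzyme Gfpt2, the isoprenoid enzyme Idi2 and the noncoding Gm20465 and Gm16685, with mean levels of 16.3 to 57.2 CPM in the lymph node. Gm16685 is annotated as antisense, and 6.6% of its exon bases overlap Il7 on the opposite strand. Without strand, reads in that part cannot be told from those of Il7.

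The 12 largest falls were of another kind, since 7 of them were Y-linked or immunoglobulin genes. These were Kdm5d, Ddx3y, Uty and Eif2s3y of chromosome Y and the variable segments Igkv5-37, Ighv14-2 and Ighv1-15. Ighv14-2 had 0.177, 31.7 and 21.8 CPM in the 3 lamina propria libraries, so that a single library was near 0, and Ighv1-15 had 27.8, 0.237 and 13.3 CPM, so that a different library was near 0. Such segments have near-identical relatives, and their counts are uncertain. Both lost the call when any 1 lymph node library was left out, Ighv14-2 also without the second lamina propria library and Ighv1-15 without the first or the third. Serpinb2, the plasminogen activator inhibitor 2, was read at 11.6, 15.2 and 10.5 CPM in the lamina propria and had no count in the lymph node libraries, at least 306-fold lower. Pilrb1, an activating paired receptor, fell from 64.6, 66.8 and 53.3 CPM to 0.456, 0.633 and 0.307 CPM. Ptprh, a receptor tyrosine phosphatase, had 11.5, 11.7 and 14 CPM in the lamina propria and 0.083, 0.211 and 0 CPM in the lymph node. Also among the 12 was the antisense RNA Gm19434, with means of 14.1 and 0.086 CPM.

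The genes of the mature, migratory DC programme rose together. All 19 that could be tested were higher in the lymph node, with a median log2 fold change of 6.26 and adjusted p of at most 2.8e-05. Ccr7, the receptor that guides DCs into lymphatics, had 171, 117 and 152 CPM in the lamina propria and 10129, 11902 and 11978 CPM in the lymph node, a log2 fold change of 6.27 ± 0.34. Fscn1, the actin-bundling protein of DC dendrites, had 58.9, 29.7 and 46.8 CPM and 8465, 6949 and 7514 CPM, a log2 fold change of 7.41 ± 0.26. Tmem123, the cell-surface mucin porimin, went from 327, 272 and 302 CPM to 12558, 11242 and 10669 CPM. The groups of these 3 genes were far apart, with folds of 77.4, 170 and 38.3. Socs2, a suppressor of cytokine signalling, rose from 7.66 ± 1.64 to 767 ± 82.6 CPM, Cd63, a tetraspanin of endosomes, from 13.8 ± 4.44 to 1712 ± 234 CPM and Samsn1, a signalling adaptor, from 28.9 ± 7.44 to 1713 ± 92.1 CPM. Apol7c, an apolipoprotein L family member, was already at 3715 ± 112 CPM in the lamina propria and rose to 8954 ± 481 CPM, the smallest change on the list (1.27 ± 0.20). Il4i1, a listed amino acid oxidase, had 0 to 4 counts in the lamina propria and 7 to 10 in the lymph node and was not tested, and 83.9% of its exon bases overlap Tbc1d17 on the opposite strand.

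**Figure D2:**
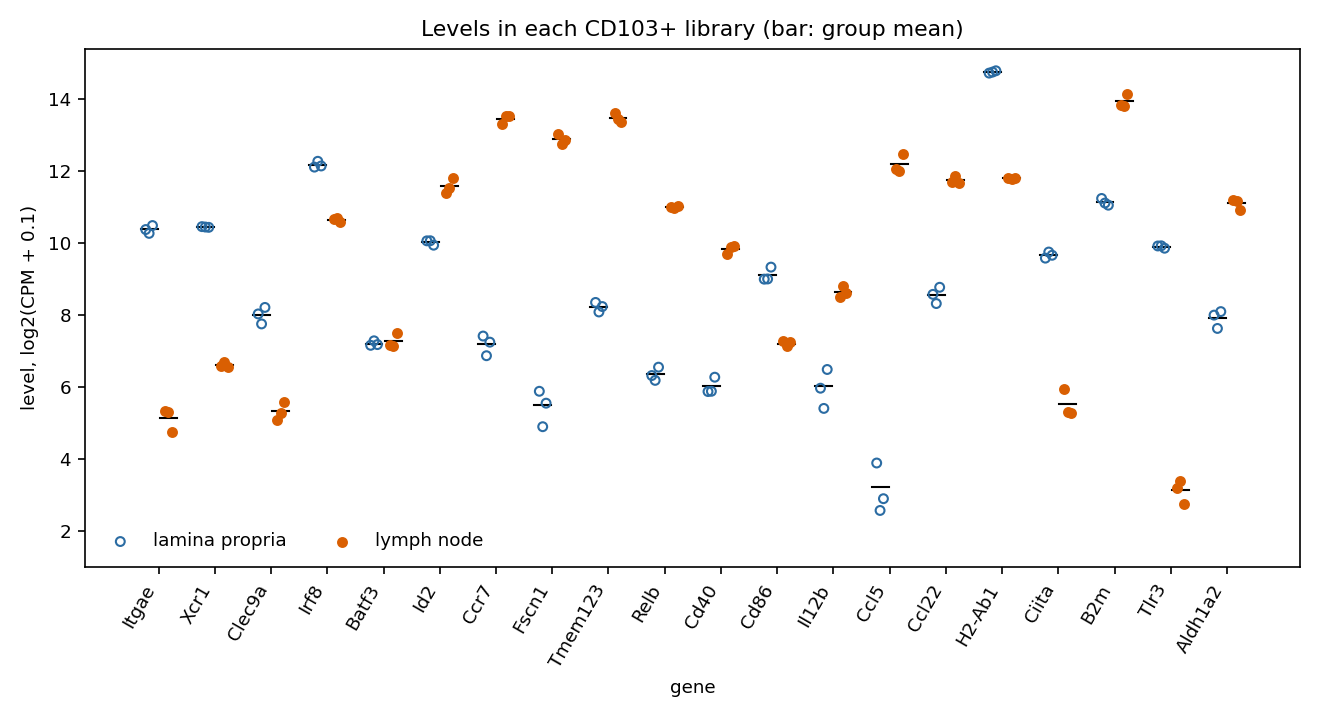
The level of 20 genes in each of the 6 CD103+ libraries is shown as log2(CPM + 0.1), with lamina propria libraries as open circles, lymph node libraries as filled circles and a bar at each group mean. The 3 libraries of a tissue lie close together beside the gap between tissues, except for Batf3, whose libraries overlap between tissues. Between group means the gap runs from 147 to 11337 CPM for Ccr7 and from 958 to 8.65 CPM for Tlr3.

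Genes of the NF-kB pathway rose with few exceptions. Of 18 subunits, inhibitors and adaptors, 16 were higher in the lymph node and none was lower, with a median log2 fold change of 2.47 and adjusted p of at most 3.7e-07. Relb, the subunit that DC maturation needs, had 79.8, 72.7 and 93.8 CPM in the lamina propria and 2049, 2031 and 2079 CPM in the lymph node, a log2 fold change of 4.64 ± 0.14. Its partner Nfkb2, which encodes p100 and p52, rose from 104 ± 4.42 to 792 ± 65.1 CPM and Map3k14, the kinase NIK that starts p100 processing, from 47.7 ± 2.25 to 270 ± 19.8 CPM. Nfkb1, the subunit p105 and p50 of the canonical arm, was not called and had 94.3 ± 5.56 CPM in the lamina propria and 60.7 ± 3.36 CPM in the lymph node. The inhibitor Nfkbia rose from 276 ± 14.2 to 1545 ± 209 CPM, the deubiquitinase Tnfaip3 from 29.5 ± 2.08 to 393 ± 43.9 CPM and the adaptor Traf1 from 119 ± 15.3 to 1528 ± 57.5 CPM. Nfkbiz, a nuclear member of the inhibitor family, was the other gene not called.

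Promoters were searched for letters that NF-kB proteins can bind. RefSeq promoters of GRCm38, 250 bases before to 50 after the start, were matched by symbol for 11442 of the genes tested (14543 promoters). The letters GGGANTTTC on either strand were in the promoter of 2 of the 15 matched genes of the NF-kB list (13.3%), in 1.26% of all matched genes, in 1.46% of those higher in the lymph node and in 1.47% of those lower. The 2 genes were Nfkb2 and Nfkbia, and their matches are shown because both genes rose and both encode proteins that hold NF-kB in the cytoplasm. Capitals mark the match, on the strand of the gene, and where it reads as GAAANTCCC it is the reverse complement of the letters searched.
Nfkb2, chr19:46305685-46305733, plus strand: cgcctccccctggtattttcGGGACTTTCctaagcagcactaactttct
Nfkb2, chr19:46305493-46305541, plus strand: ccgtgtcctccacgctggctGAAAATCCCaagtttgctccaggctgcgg
Nfkbia, chr12:55492732-55492780, minus strand: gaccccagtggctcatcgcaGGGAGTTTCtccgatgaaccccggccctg
Nfkbia, chr12:55492648-55492695, minus strand: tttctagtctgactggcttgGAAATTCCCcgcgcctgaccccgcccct
A match of letters is a description and no evidence of binding in these cells.

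Costimulatory genes rose in most cases, with exceptions among them. Of 19 costimulation and checkpoint genes, 12 were higher and 3 lower, with a median of 2.02. Cd40, which receives help from CD4 T cells, had 58.6, 58.9 and 77.3 CPM in the lamina propria and 831, 960 and 977 CPM in the lymph node. Cd70, the ligand of CD27, went from 0, 0 and 0.204 CPM to 14.3, 12 and 17.4 CPM. Both ligands of PD-1 rose, Cd274 (PD-L1) from 35.7 ± 5.42 to 299 ± 24.9 CPM and Pdcd1lg2 (PD-L2) from 14.9 ± 1.95 to 205 ± 14.6 CPM. Icosl, the ligand of ICOS, Tnfsf9, the ligand of 4-1BB, and its receptor Tnfrsf9 rose by 2.96, 3.09 and 6.93 on the log2 scale. The B7 ligands of CD28 went differently. Cd86 fell from 512, 514 and 646 CPM to 154, 140 and 151 CPM, with no overlap, while Cd80 had 23.9, 18.9 and 32.2 CPM and 21.2, 24.8 and 22.7 CPM and was not called. Cd83, a maturation marker that keeps MHC class II and CD86 at the surface, rose from 563 ± 133 to 1715 ± 165 CPM. The inhibitory receptor Havcr2 (TIM-3) fell from 393, 370 and 473 CPM to 28.8, 25 and 25.9 CPM.

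Cytokine genes were at low to moderate levels. Of 18 tested, 9 rose and 3 fell, with a median of 1.72. Il12b, the p40 subunit of IL-12 and IL-23, had 62.5, 42.3 and 89.7 CPM in the lamina propria and 362, 453 and 390 CPM in the lymph node. Its IL-12 partner Il12a had no count in the lamina propria and 0.207, 0.843 and 0.57 CPM in the lymph node, at least 17.8-fold higher. Il27 rose from 2.94 ± 0.813 to 38.3 ± 6.65 CPM and its partner Ebi3 from 35.5 ± 2.6 to 87.3 ± 11.7 CPM. Il15, which DCs present to CD8 T and NK cells, went from 24.8, 21.2 and 24.1 CPM to 206, 223 and 265 CPM. Of the TGF-beta genes, Tgfb1 fell from 153 ± 15.6 to 38.7 ± 7.14 CPM, Tgfb2 rose from 0.212, 0.043 and 0.0816 CPM to 20.7, 17.2 and 21.9 CPM, and Tgfb3 was not called, with 2.1 ± 0.155 and 1.69 ± 0.381 CPM. Il16, a CD4 ligand that is stored as a precursor, fell from 183 ± 12.4 to 24.8 ± 7.7 CPM, and Il1a fell from 2.15 ± 0.368 to 0.329 ± 0.226 CPM. Il18 was not called, with 2.96 ± 0.871 and 4.58 ± 1.42 CPM, and Ifnb1 had 0 counts in the lamina propria and 1 to 2 in each lymph node library and was not tested.

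Chemokines that DCs use to draw T cells were among the higher genes. Of 14 chemokine genes, 7 rose and 2 fell, with a median of 1.12. Besides Ccl5, Ccl22, a ligand of CCR4 on regulatory and helper T cells, had 382, 320 and 438 CPM in the lamina propria and 3324, 3751 and 3285 CPM in the lymph node, and Cxcl16, the membrane-bound ligand of CXCR6, had 285, 249 and 324 CPM and 2140, 2314 and 2316 CPM. Ccl17, the other ligand of CCR4, had 59.2, 42.8 and 68.6 CPM and 57.7, 58.5 and 67.1 CPM, which overlapped. Ccl19, a ligand of CCR7, had no count in the lamina propria and 1.7, 1.31 and 1.67 CPM in the lymph node, at least 51.5-fold higher. The 2 that fell were Cxcl9, a ligand of CXCR3, from 131 ± 11.4 to 47.1 ± 4.76 CPM, and Ccl4, the chemokine MIP-1β, from 31.9 ± 11.6 to 9.73 ± 2.94 CPM.

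Chemokine receptors went both ways. Of 15 chemokine receptor and positioning genes, 8 rose and 5 fell, with a median of 2.75. Those that fell included Ccr1, Ccr2, Ccr9 and Cxcr3. Ccr2, the receptor of CCL2, had 100, 63 and 21.6 CPM in the lamina propria and 6.18, 7.25 and 3.73 CPM in the lymph node. Ccr9, the receptor for the small intestinal chemokine CCL25, had 114, 130 and 135 CPM and 27, 30.8 and 20.6 CPM, and Cxcr3 had 123, 149 and 112 CPM and 22.7, 24.9 and 16.7 CPM. None of the 3 overlapped between tissues, which was also so for 65.6% of all genes tested. Cxcr5, the follicle-homing receptor, went from 0.283, 0.129 and 0 CPM to 11, 9.57 and 8.33 CPM and Ccr6, the receptor of CCL20, from 0.637, 0.323 and 0.449 CPM to 17.4, 15.1 and 11.9 CPM, both from low levels. The guanine exchange factor Rasgrp2 rose from 2.54 ± 0.96 to 17.4 ± 6.39 CPM and the chromatin organiser Satb1 from 4.8 ± 0.747 to 33.7 ± 8.96 CPM. Gpr183, the oxysterol receptor that positions cells at the follicle edge, was not called, with 75.5 ± 8.44 and 47 ± 4.52 CPM.

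The genes of MHC class II presentation were mostly lower. Of 16 genes, 11 were lower, 4 higher and 1, the cathepsin Ctsl (17.3 and 14.8 CPM), was not called, with a median of -1.80 and adjusted p of at most 1.2e-07. H2-Ab1, the β chain of I-A, had 27198, 27734 and 28443 CPM in the lamina propria and 3622, 3517 and 3607 CPM in the lymph node, a log2 fold change of -2.96 ± 0.11. Ciita, the transactivator that class II genes require, had 768, 864 and 812 CPM and 61.2, 39.3 and 38.4 CPM, a log2 fold change of -4.14 ± 0.19. March1, the ubiquitin ligase that removes class II and CD86 from the surface, had 238, 207 and 273 CPM and 11.8, 6.96 and 7.89 CPM. The peptide-loading chains H2-DMa and H2-DMb1 had log2 fold changes of -3.51 and -4.41, and Cd74 fell from 38078 ± 1728 to 14377 ± 325 CPM. The 4 genes that rose were Ctss and Ctsb, which are lysosomal cathepsins, Lgmn, the asparaginyl endopeptidase, and Ifi30, the lysosomal thiol reductase. Lgmn had the steepest rise of these, from 25.2, 25.1 and 25.1 CPM to 655, 704 and 716 CPM.

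MHC class I went the other way. Of 17 genes of class I presentation, 8 rose and 1, the chaperone Pdia3, fell (just past the fold threshold and no longer called without the first or the second lamina propria library), with a median of 0.98. The heavy chain H2-K1 had 1889, 1765 and 1678 CPM in the lamina propria and 13330, 13655 and 15298 CPM in the lymph node, and H2-D1 had 3753, 3639 and 3193 CPM and 19502, 20329 and 21733 CPM. B2m had 2427, 2222 and 2132 CPM and 14821, 14482 and 18022 CPM, a log2 fold change of 2.80 ± 0.12. Class I heavy chains are near-identical to each other in places, and their counts are uncertain. Nlrc5, the class I counterpart of CIITA, rose from 30.8 ± 3.39 to 113 ± 1.36 CPM and Psme2, a subunit of the proteasome activator, from 541 ± 19.5 to 3061 ± 317 CPM. The transporter subunit Tap1 rose by 1.03 on the log2 scale and was not called without the second lymph node or the third lamina propria library, while Tap2 and the immunoproteasome genes Psmb8 and Psmb9 stayed under the fold threshold. Across libraries the summed level of the 17 genes was 16154 to 17742 CPM in the lamina propria and 63594 to 72228 CPM in the lymph node. The summed level of the 16 class II genes was 89640 to 95444 CPM and 29386 to 31079 CPM.

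**Figure D3:**
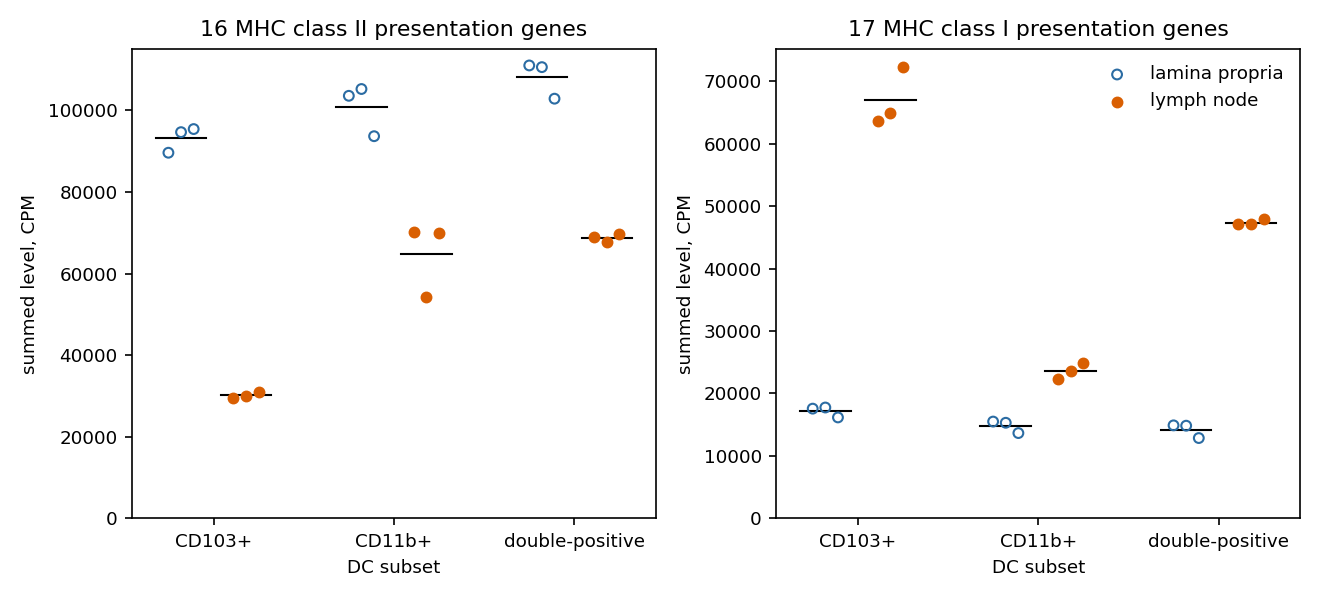
The summed CPM of 16 MHC class II presentation genes (left panel) and of 17 MHC class I presentation genes (right panel) is plotted on linear axes from 0 for each of the 18 libraries, with lamina propria libraries as open circles, lymph node libraries as filled circles and a bar at each group mean. The CD103+ lymph node libraries have the lowest class II sums of the 6 groups (29386 to 31079 CPM) and the highest class I sums (63594 to 72228 CPM).

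The promoter of B2m holds a match to GGGANTTTC and another to GAAANNGAA, letters found in the interferon-stimulated response element (ISRE), and it is shown because B2m was the second most abundant transcript per length in lymph node CD103+ DCs. The stretches overlap, and capitals mark first the ISRE letters and then the kB letters, which stand as the reverse complement.
B2m, chr2:122147528-122147576, plus strand: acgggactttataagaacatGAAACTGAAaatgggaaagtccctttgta
B2m, chr2:122147542-122147590, plus strand: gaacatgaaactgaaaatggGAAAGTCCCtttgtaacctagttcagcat
Of the 15 matched class I genes, B2m alone held GGGANTTTC, and 3 (20.0%) held GAAANNGAA, which was in 9.05% of all matched genes.

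Pattern recognition genes went both ways. Of 25, 8 rose, 6 fell and 11 were not called, with a median of 0.00, at which Clec4e stands with no count in any CD103+ library. Among all genes tested, 19.8% rose and 15.1% fell. Tlr3, the endosomal receptor for double-stranded RNA, is counted on the cDC1 identity list and is not 1 of the 25. It had 971, 974 and 930 CPM in the lamina propria and 9.08, 10.3 and 6.57 CPM in the lymph node, a log2 fold change of -6.79 ± 0.17. Of the 25, these fell. Tlr11 and Tlr12, endosomal receptors for protozoan profilin, had 478 ± 12.9 and 856 ± 42 CPM in the lamina propria and 42.2 ± 8.76 and 63.9 ± 8.14 CPM in the lymph node. Unc93b1, which escorts endosomal Toll-like receptors, fell from 1920 ± 91.6 to 579 ± 33.3 CPM. Among those that rose were the β-glucan receptor Clec7a, from 11.1, 6.32 and 11.7 CPM to 64.5, 94.5 and 72.8 CPM, and the RNA helicase Ddx58 (RIG-I), from 1.37 ± 0.363 to 17.2 ± 5.32 CPM.

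Uptake receptors were split evenly, with 5 of 15 higher, 5 lower and a median of -0.71. The shares over all genes tested were 19.8% higher and 15.1% lower. The scavenger receptors Cd36 and Scarb1 fell, from 600 ± 42.6 to 192 ± 35.1 CPM and from 186 ± 12.5 to 30.5 ± 3.52 CPM. Itgb5 rose from 3.15 ± 0.324 to 46.1 ± 9.34 CPM while Itgav, the αv chain with which it binds apoptotic cells, fell from 34.8 ± 2.74 to 11.7 ± 0.974 CPM. Ly75, the uptake receptor DEC-205, had 153, 134 and 136 CPM in the lamina propria and 181, 197 and 171 CPM in the lymph node and was not called.

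Retinoic acid genes changed in opposite directions along the pathway. Of 12 tested, 4 rose and 7 fell, with a median of -1.45. Aldh1a2, the dehydrogenase by which intestinal DCs make retinoic acid, had 256, 198 and 274 CPM in the lamina propria and 2375, 2319 and 1955 CPM in the lymph node, a log2 fold change of 3.19 ± 0.20. Cyp26b1, which breaks retinoic acid down, went from 86.4, 74.7 and 51.6 CPM to 1.29, 0.801 and 0.175 CPM, a log2 fold change of -6.54 ± 0.53. Dhrs9, a retinol dehydrogenase, fell from 42.2 ± 4.01 to 2.46 ± 0.462 CPM. Of the receptors, Rara fell from 64 ± 14.1 to 17.2 ± 1.04 CPM, Rxra from 20.9 ± 1.71 to 4.24 ± 1.35 CPM and Rarb from 8.69 ± 0.402 to 0.578 ± 0.146 CPM, with 34.1% of the exon bases of Rarb overlapping Top2b on the opposite strand, while Rarg rose from 0.362 ± 0.101 to 2.98 ± 0.94 CPM. Stra6, the membrane receptor for retinol-binding protein, had no count in the lamina propria and 3.69, 5.06 and 1.1 CPM in the lymph node, at least 110-fold higher. Crabp2 had too few counts to be tested.

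Of 9 genes of TGF-beta activation and signalling, 3 rose and none fell, with a median of -0.15. Itgb8, the integrin chain with which intestinal DCs activate latent TGF-beta, had 3.15, 1.83 and 4.85 CPM in the lamina propria and 105, 120 and 124 CPM in the lymph node, a log2 fold change of 5.18 ± 0.34. Smad3 rose from 1.34 ± 0.867 to 11.9 ± 3.76 CPM and Ltbp3, a latency-binding protein, from 1.9 ± 0.543 to 8.02 ± 1.36 CPM. The receptors Tgfbr1 and Tgfbr2 had 35.6 ± 4.43 and 69 ± 2.72 CPM in the lamina propria and 22.4 ± 4.83 and 42.8 ± 14.2 CPM in the lymph node, and neither was called.

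Interferon-stimulated genes rose in most cases. Of 24, 19 were higher and none lower, with a median of 2.28 and adjusted p of at most 1.1e-04. Ifit1, which binds the ends of viral RNA, had 1.03, 2.11 and 1.18 CPM in the lamina propria and 45.9, 50.8 and 31.7 CPM in the lymph node. Mx1, a dynamin-like antiviral GTPase, had 24, 16 and 23.3 CPM and 291, 293 and 313 CPM, and Gbp2, a guanylate-binding protein with near-identical relatives, had 15.5, 13.4 and 9.22 CPM and 317, 245 and 274 CPM. Usp18, which removes ISG15 from proteins and damps the receptor, rose from 59.8 ± 1.74 to 479 ± 47.8 CPM. The lamina propria and lymph node libraries of these 4 genes did not overlap, which was also so for 65.6% of all genes tested. Irf7 rose from 81.6 ± 2.66 to 179 ± 21.1 CPM. The 5 genes not called included Stat2, a subunit of the factor that interferon activates, with a log2 fold change of -0.73 ± 0.11.

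The letters GAAANNGAA were in the promoter of 11 of the 17 matched interferon-stimulated genes (64.7%), against 9.05% of all matched genes, 9.84% of those higher and 10.1% of those lower in the lymph node. The related letters GGAANNGAA, of sites shared by ETS factors and IRFs, were in 2 of the 17, in 9.07% of all matched genes, in 7.99% of the higher and in 9.01% of the lower ones, and 156 genes held both kinds of match. The stretches of 4 genes that rose are shown, with capitals at 1 match each, since Ifit1 and Isg15 hold several that overlap.
Ifit1, chr19:34640766-34640814, plus strand: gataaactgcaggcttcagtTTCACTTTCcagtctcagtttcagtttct
Isg15, chr4:156200862-156200910, minus strand: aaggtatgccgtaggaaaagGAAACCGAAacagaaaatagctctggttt
Gbp2, chr3:142620585-142620633, plus strand: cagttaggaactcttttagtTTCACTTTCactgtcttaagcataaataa
Rsad2, chr12:26456543-26456591, minus strand: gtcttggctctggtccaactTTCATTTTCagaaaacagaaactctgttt
These 4 genes had log2 fold changes of 4.84, 2.57, 4.45 and 4.42, and Stat2, which also holds the letters, had -0.73.

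**Figure D4:**
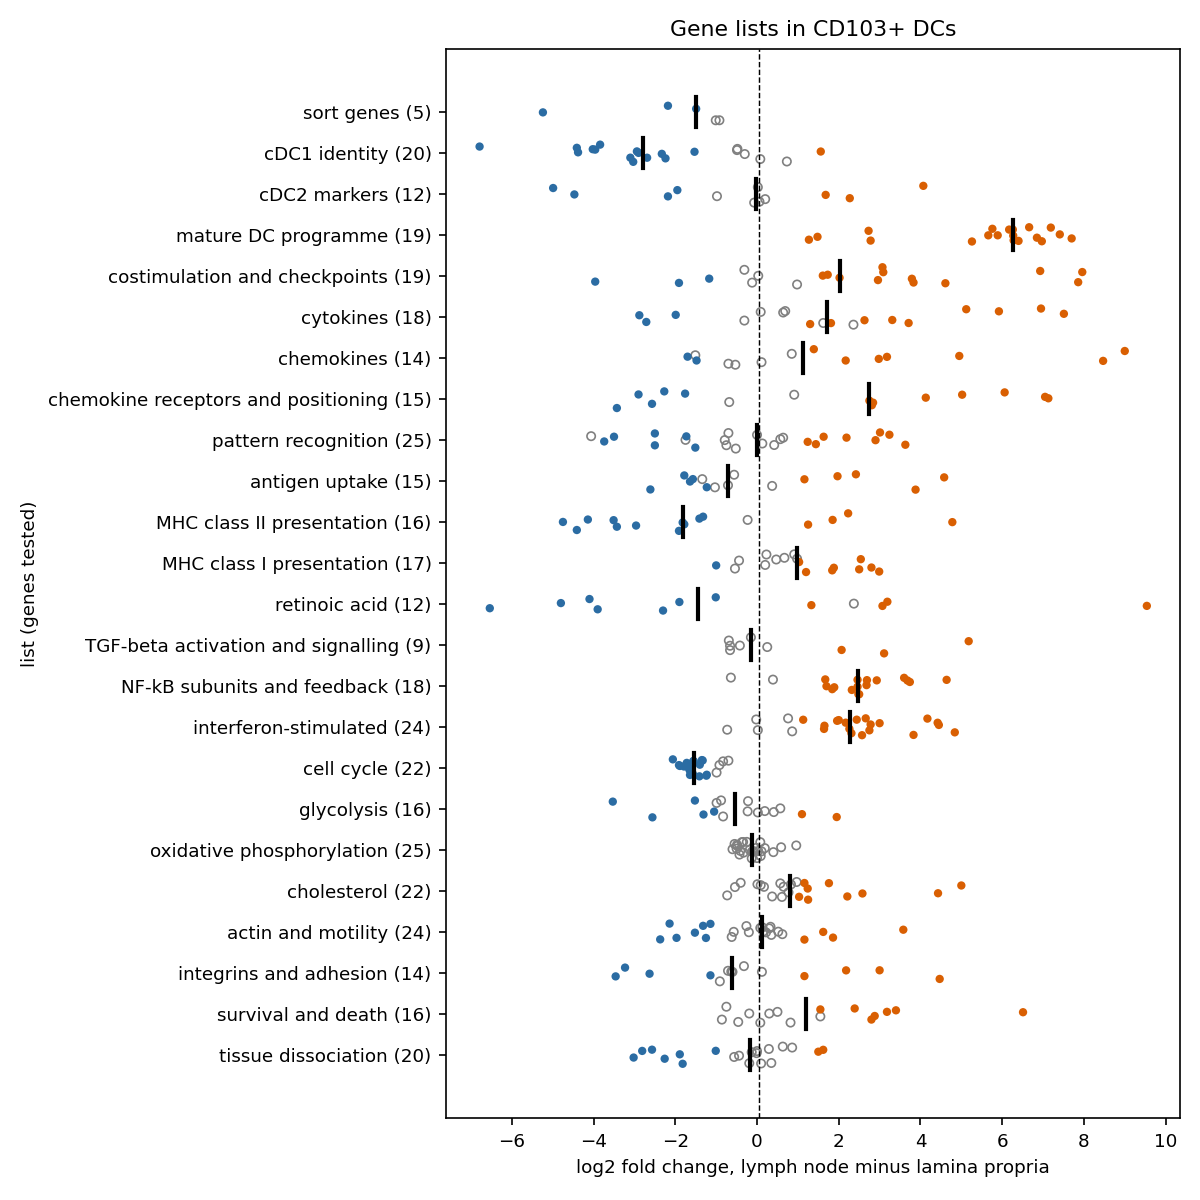
Each point is 1 tested gene of 24 functional lists, placed by its log2 fold change, lymph node minus lamina propria, with filled points for genes past both limits, open points for the others, a bar at the list median and a dashed line at the median of all genes tested (0.04). The mature DC list has the highest median (6.26) and the cDC1 identity list the lowest (-2.79), and the oxidative phosphorylation genes lie around 0 (-0.13).

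Cell cycle genes were lower in the lymph node. Of 22, 18 fell and none rose, with a median of -1.55 and adjusted p of at most 4.7e-04. Mki67, the proliferation marker Ki-67, had 73.1, 57.1 and 62.9 CPM in the lamina propria and 20.4, 19.3 and 19 CPM in the lymph node, and Top2a, the topoisomerase of dividing cells, had 110, 97.4 and 99 CPM and 27.1, 32.7 and 28.4 CPM. Both groups were well above 0. They did not overlap, which was also so for 65.6% of all genes tested. Ccnb2, a mitotic cyclin, fell from 77.1 ± 1.82 to 18.5 ± 6.6 CPM and Mcm5, a subunit of the replicative helicase, from 187 ± 29.5 to 70.3 ± 17.8 CPM, while Mcm4, Mcm6, Mcm7 and Pcna had log2 fold changes of -0.70, -0.99, -0.92 and -0.83 and were not called. In bulk libraries, fewer cells of a kind and less RNA per cell cannot be told apart. The E2F letters TTTCCCGC or TTTGGCGC were in the promoter of 4 of the 19 matched cell cycle genes (21.1%), against 3.26% of all, 2.62% of the higher and 3.83% of the lower genes, and the match of Mcm5, read as the reverse complement of TTTGGCGC, is shown as that of a gene that fell.
Mcm5, chr8:75109340-75109387, plus strand: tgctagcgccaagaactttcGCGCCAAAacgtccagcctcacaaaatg

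Metabolic lists differed in their share of changed genes. None of 25 oxidative phosphorylation genes was called by edgeR or by DESeq2, since all stayed under a 2-fold change. Of the 25, 15 had an unadjusted p under 0.05 in edgeR and 13 had an adjusted p under 0.01. Log2 fold changes of the 25 genes ran from -0.60 to 0.96, with a median of -0.13. Of 16 glycolysis genes, 2 rose and 5 fell, with a median of -0.53, and with total counts in place of TMM 1 rose and 8 fell. Under TMM, 19.8% of all genes tested rose and 15.1% fell. Ldha, which turns pyruvate into lactate, had 1720, 1850 and 1696 CPM in the lamina propria and 296, 341 and 258 CPM in the lymph node, and the hexokinase Hk2 had 37.7, 36.4 and 36.5 CPM and 3.48, 2.87 and 3.2 CPM. Slc16a3, a lactate exporter, rose from 6.2 ± 1.1 to 24.1 ± 1.24 CPM. Of 22 cholesterol genes, 9 rose and none fell, with a median of 0.80. The exporter Abcg1 had 11.2, 8.15 and 7.51 CPM in the lamina propria and 277, 266 and 317 CPM in the lymph node, a log2 fold change of 5.00 ± 0.26. Abca1, the other exporter listed, rose from 0.0638 ± 0.0779 to 1.71 ± 0.956 CPM.

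Genes of the cytoskeleton went both ways, with 4 of 24 higher, 7 lower and a median of 0.11 that was -0.11 with total counts in place of TMM. Over all genes tested, 19.8% were higher and 15.1% lower. Swap70, which DC migration and actin remodelling use, had 111, 111 and 114 CPM in the lamina propria and 1370, 1412 and 1257 CPM in the lymph node. Lsp1, an actin-binding protein of leukocytes, rose from 2607 ± 261 to 5824 ± 301 CPM, and Coro1a, which regulates the Arp2/3 complex, fell from 2840 ± 217 to 643 ± 76.4 CPM. Was, the haematopoietic activator of Arp2/3, fell from 54.9 ± 5.73 to 10.6 ± 1.07 CPM and Vasp, which extends filaments, from 391 ± 18.6 to 99.8 ± 8.46 CPM. Among 14 integrins and adhesion genes, 4 rose and 4 fell, with a median of -0.62. The β2 chain Itgb2, with which CD11a forms LFA-1, had 1030, 1007 and 963 CPM and 126, 121 and 72.6 CPM, and Itgb7, the partner of CD103, had 877, 960 and 590 CPM and 151, 164 and 78.6 CPM. F11r, the junctional adhesion molecule A, rose from 10.8 ± 3.57 to 235 ± 4.22 CPM and Selplg, the selectin ligand PSGL-1, from 576 ± 72.5 to 2604 ± 87.8 CPM. Jaml, a junctional adhesion receptor of leukocytes, fell from 544 ± 25.1 to 49.4 ± 4 CPM.

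Of 16 genes of survival and death, 7 rose and none fell (1 without the third lymph node library), with a median of 1.19. They included genes of both effects. Fas, the death receptor, had 5.8, 3.12 and 3.47 CPM in the lamina propria and 318, 391 and 407 CPM in the lymph node. Bcl2l1, which encodes the survival factor BCL-XL, rose from 19.2 ± 1.94 to 133 ± 2.53 CPM, Cflar, an inhibitor of death receptor signalling, from 30 ± 2.87 to 317 ± 7.59 CPM, and Bcl2l11, which encodes the killer BIM, from 18.5 ± 3.17 to 96.5 ± 12.7 CPM. Bcl2 and Mcl1 were not called.

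Genes that tissue dissociation is known to induce were measured. Of 20, 7 fell and 2 rose, with a median of -0.16. The immediate early gene Egr1 had 1169, 955 and 570 CPM in the lamina propria and 124, 101 and 108 CPM in the lymph node, Fos fell from 2414 ± 221 to 652 ± 170 CPM, and Ier2 and Btg2 had log2 fold changes of -2.26 and -2.57. Atf3, a stress-induced factor, was not called, with 135 ± 21.9 and 99.7 ± 30.5 CPM, and Dusp1, a phosphatase of MAP kinases, rose from 594 ± 55.2 to 1678 ± 340 CPM. The part of cell isolation in the tissue difference was not tested.

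Markers of other cells were measured in the same libraries. The 14 T cell markers all rose, with a median log2 fold change of 6.17, and their summed level was 11.7 to 19.1 CPM in the lamina propria and 974 to 1471 CPM in the lymph node. Cd3e, a chain of the T cell receptor complex, had 1.13, 1.08 and 0.979 CPM in the lamina propria and 69.5, 70.6 and 39 CPM in the lymph node, and Trac, the constant region of the receptor α chain, had 1.31, 1.05 and 0.734 CPM and 113, 110 and 67.9 CPM. The third lymph node library had the lowest level of each. Tcf7, a T cell factor that is listed with them, had 2.97, 1.85 and 3.88 CPM and 574, 477 and 449 CPM, more than any other marker of the list. The lymph node CD11b+ and double-positive libraries had summed T cell markers of 747 to 1141 and 1103 to 1327 CPM. Of 7 NK and ILC markers 6 rose, with a median of 3.72 and sums of 2.6 to 3.29 CPM in the lamina propria and 186 to 203 CPM in the lymph node, most of it Il7r (176 ± 14.1 CPM), which T cells also express. Where a gene named above is also made by T or NK cells, as Cd8a, Ccl5, Cxcr3, Rasgrp2, Satb1 and Il7r are, the part of those cells in its level was not tested.

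The lists for the remaining cell types were described in the same way. Of 10 B cell markers, 6 rose and 2 fell, with a median of 1.83, and the sums were 518 to 623 CPM in the lamina propria and 287 to 312 CPM in the lymph node, since Ighm, which fell from 517 ± 67.3 to 237 ± 9.93 CPM, made up most of the sum. Of 7 plasma cell markers 1 rose (Mzb1) and 1 fell (Derl3), 2 without the third lamina propria library, with a median of -0.28 and sums of 1814 to 3324 and 1286 to 1897 CPM, mostly Igha and Igkc. Of 10 macrophage markers 2 rose and 3 fell (6 without the second lamina propria library), with a median of -1.14 and sums of 41.4 to 51.9 and 15.1 to 20.9 CPM. Fcgr1, which encodes CD64, had 0.389, 0.258 and 0.122 CPM in the lamina propria and no count in the lymph node, at least 6.17-fold lower. Of 11 epithelial markers 4 fell (2 without the third lamina propria library), with a median of -1.80 and sums of 68.6 to 118 and 27.2 to 35.1 CPM. The 4 plasmacytoid DC markers tested had 2 that rose, a median of 1.04 and sums of 38.5 to 39.4 and 47.3 to 63.1 CPM, with the defining Siglech at 0.419 ± 0.233 and 0.44 ± 0.0944 CPM. Of 7 stromal and endothelial markers 1 rose (Pecam1) and none fell (1 without the first or the third lymph node library), with a median of -1.08 and sums of 5.02 to 9.02 and 8.42 to 14.5 CPM, and the 3 neutrophil markers tested had 0 to 0.245 CPM in all and none was called by edgeR or DESeq2, with 0 at an unadjusted p under 0.05.

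**Figure D5:**
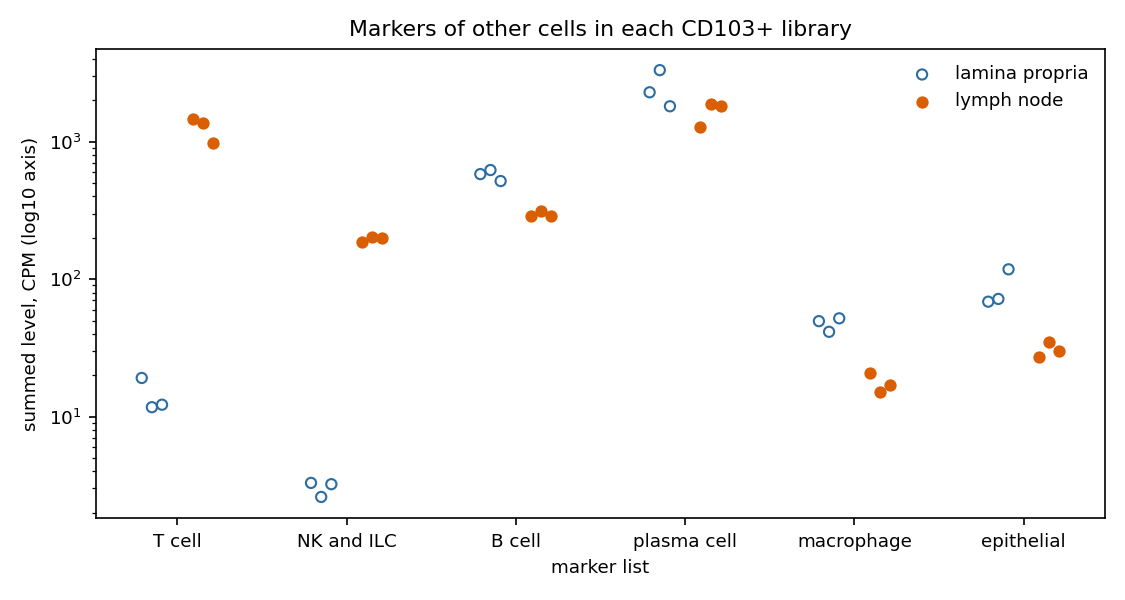
Summed CPM of the T cell, NK and ILC, B cell, plasma cell, macrophage and epithelial marker lists in each of the 6 CD103+ libraries, on a log10 axis, with lamina propria libraries as open circles and lymph node libraries as filled circles. T cell sums go from 11.7 to 19.1 CPM up to 974 to 1471 CPM, while macrophage and epithelial sums are lower in the lymph node.

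The tissue difference of CD103+ DCs was tested against that of the other subsets in the same fit. It differed from that of CD11b+ DCs in 3154 genes (18.5%), more positive in 1583 and more negative in 1571, and from that of double-positive DCs in 1429 genes (8.37%), more positive in 717 and more negative in 712. In 884 genes it differed from both in the same direction, 441 more positive and 443 more negative, and 753 of these were also called in CD103+ DCs. The 3 tests share the CD103+ libraries. On the lists, 15 of the 20 cDC1 identity genes differed from CD11b+ DCs and 15 from double-positive DCs, as did 14 and 12 of the 16 class II genes. Of 18 NF-kB genes 15 differed from CD11b+ DCs and 4 from double-positive DCs, and of the 22 cell cycle genes 13 and 0 (0 also with DESeq2, and 1 at an unadjusted p under 0.05 in edgeR). Of 24 interferon-stimulated genes 13 and 15 differed, and of 17 class I genes 6 and 2.

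Most class II genes differed from both subsets, with exceptions. H2-Ab1 changed by -2.96 ± 0.11 on the log2 scale in CD103+ DCs, by -0.71 in CD11b+ DCs and by -1.06 in double-positive DCs, and the difference was -2.25 ± 0.14 against the first and -1.89 ± 0.14 against the second. Ciita changed by -4.14 ± 0.19, -0.49 and -1.55, with differences of -3.65 ± 0.25 and -2.59 ± 0.24. Cd74 changed by -1.41 ± 0.11, -0.70 and -0.61, and its differences of -0.70 ± 0.16 and -0.79 ± 0.16 were not called. H2-Oa, H2-Ob and H2-DMb2 were not called against double-positive DCs. H2-Ob changed by -3.43 ± 0.15 in CD103+ and by -3.13 in double-positive DCs. Lgmn rose by 4.78 ± 0.11 in CD103+ DCs, with 0.07 in CD11b+ and 1.50 in double-positive DCs. Gbp2 behaved likewise, with 4.45 ± 0.18, 0.70 and 2.37.

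Several genes went in opposite directions. Irf8 changed by -1.53 ± 0.09 in CD103+ DCs and by 1.43 in CD11b+ and 3.04 in double-positive DCs, and Xcr1 changed by -3.84 ± 0.16, 1.78 and 1.55. Cxcr3, with 128 and 21.5 CPM in CD103+ DCs, had 3.1 ± 0.751 and 50.3 ± 13.3 CPM in the lamina propria and lymph node CD11b+ libraries and 2.29 ± 0.534 and 24.7 ± 3.78 CPM in the double-positive ones. Rab7b, a GTPase of late endosomes, had 694 ± 69.9 and 33.3 ± 0.226 CPM in CD103+ DCs, and 20.4 ± 3.69 and 50.3 ± 7.27 CPM in CD11b+ DCs. In these genes the lamina propria level was high in CD103+ DCs alone, and the lymph node levels of the subsets were closer together. Clec7a and the metallothionein Mt1 rose in CD103+ DCs and were lower in the lymph node in the others, Clec7a with 354 ± 71.7 and 103 ± 13.5 CPM in CD11b+ and 323 ± 26.7 and 46.1 ± 3.22 CPM in double-positive DCs. The ergothioneine transporter Slc22a4 had 0.424, 0.129 and 0.0408 CPM and 48.9, 51.5 and 45.6 CPM in CD103+ DCs, with 7.01 ± 1.5 and 7.57 ± 1.41 CPM in CD11b+ DCs and 5.3 ± 1.82 and 35.7 ± 1.76 CPM in double-positive DCs. In the lymph node, Ddx3y had 0.213, 0.13 and 58 CPM in the CD11b+ and 0.0391, 0 and 52.2 CPM in the double-positive libraries, and Xist had 89.1, 87.8 and 15.4 CPM and 41.6, 35.1 and 26.1 CPM. The third library of each subset thus held Y-linked reads beside Xist, and the others were like the CD103+ libraries of that tissue. Without these 2 libraries, an alternative chosen after seeing the data, the tissue difference of CD103+ DCs differed from that of CD11b+ DCs in 2871 genes and from that of double-positive DCs in 1220. H2-Ab1, Ciita and the 12 genes with the largest differences against both subsets kept their calls in both tests, except that of Ptprh against double-positive DCs (-6.44). In all 3 subsets the lamina propria libraries had 50 to 74.4 CPM of Ddx3y. Sex and tissue thus went together fully in CD103+ DCs, and in the other subsets except for the third lymph node library of each.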

How the data were processed

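RNA was sequenced from sorted intestinal DCs, and the authors deposited unnormalised read counts per Ensembl gene for all 18 libraries in 1 table. The submitters' processing notes name FastQC 0.11.7, STAR 2.6 and the genome build GRCm38. The study's methods, written for its own DC libraries, give a SMART-seq v4 kit, uniquely aligned reads and counting without strand, so counts of near-identical, overlapping and antisense genes are uncertain. Total counts were 23999555 to 46901985 in the 6 CD103+ libraries, and TMM scaling was used to compare them. Names and positions came from GENCODE annotation of GRCm38, which held 54165 of 54232 identifiers.

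Genes passing filterByExpr were fitted with edgeR 4.0.16 (R 4.3.3, limma 3.58.1) by a quasi-likelihood model with 1 mean for each of the 6 groups, and tested by Benjamini-Hochberg adjusted p under 0.01 and fold change over 2. The SE was the absolute log2 fold change divided by the square root of F. A gene with no count in 1 tissue was given a lower bound of its fold against a floor of 3 counts over the group, which covers counting error only. List medians were the same with such genes at their bound. Tables and promoter searches were made with pandas 2.3.3 in Python 3.11.15. The procedure was tested on simulated data. The members and gene lists were chosen with earlier results of these data known, so lists were described by counts and medians and not tested.

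Named genes were the 12 largest rises and 12 largest falls without overlap between tissues (mean of 10 CPM or more where higher), the 8 with the highest CPM per kb of exon in each tissue, the 6 largest and 6 smallest differences of the tissue effect against both other subsets, and list members. Some of these genes are not reported here. Alternatives were DESeq2 1.42.0 as scaling and as test, total counts, no filter and a filter of at least 100 counts in 3 libraries, equal depth, the compared libraries alone, a replicate block, each CD103+ library left out, the fit without the lymph node CD11b+ and double-positive libraries that held Y-linked reads (added after seeing the data), no genes of chromosomes X and Y, an adjusted p under 0.05, and promoters without the 50 bases after the start.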

Additional observations from a re-analysis of the deposited data

Results flagged for a closer look

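The tissue difference (lymph node minus lamina propria) in CD103+ DCs differed from that in CD11b+ DCs in 3154 genes and from that in double-positive DCs in 1429 genes, by the test of the difference in edgeR's quasi-likelihood fit with a Benjamini-Hochberg adjusted p under 0.01 and a log2 difference over 1. The 12 genes below were called against both subsets in the same direction.

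In the 6 genes with the most positive differences, the log2 difference against CD11b+ and then against double-positive DCs was 7.83 and 5.19 for the ergothioneine transporter Slc22a4, 6.43 and 5.06 for the attractin-like gene Atrnl1, 4.79 and 5.82 for the β-glucan receptor Clec7a, 5.20 and 4.78 for the guanylate-binding protein Gbp4, 4.61 and 4.94 for the ETS factor Ehf and 4.48 and 4.88 for the metallothionein Mt1. Atrnl1 had 0.46, 0.215 and 0.122 CPM in lamina propria and 19.7, 23 and 19 CPM in lymph node CD103+ libraries, with 14.5 ± 4.32 and 12.9 ± 1.52 CPM in CD11b+ DCs. Gbp4 had 4.42, 3.51 and 4.85 and 352, 280 and 285 CPM in CD103+ DCs, and 44.8 ± 2.2 and 88.7 ± 20.6 CPM in CD11b+ DCs. Ehf had 0.778, 0.882 and 1.14 and 42.8, 46 and 47.5 CPM in CD103+ DCs, and 25.4 ± 0.485 and 51 ± 4.49 CPM in CD11b+ DCs. Mt1 had 22.5, 26.2 and 24.7 and 149, 140 and 196 CPM in CD103+ DCs, and 121 ± 35 and 35.7 ± 5.01 CPM in CD11b+ DCs.

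In the 6 genes with the most negative differences, the values were -9.38 and -6.44 for Serpinb2, -7.07 and -6.19 for Tlr3, -6.59 and -6.01 for Cxcr3, -5.77 and -6.76 for the growth factor gene Nrg2, -5.68 and -6.32 for Rab7b and -5.60 and -6.63 for Ptprh, the last of these not called without the third lymph node library of both other subsets (-6.44). Tlr3, with 958 and 8.65 CPM in CD103+ DCs, had 18.3 ± 2.08 and 22.2 ± 2.25 CPM in the lamina propria and lymph node CD11b+ libraries and 28 ± 2.06 and 18.6 ± 2.56 CPM in the double-positive ones. Nrg2 had 15.4, 16.2 and 11.6 and 4.19, 2.4 and 3.51 CPM in CD103+ DCs, and 3.65 ± 1.51 and 46.5 ± 13.7 CPM in CD11b+ DCs. Serpinb2 was at 6.89 ± 3.04 and 1.63 ± 0.456 CPM in CD11b+ DCs, and as it had no count in lymph node CD103+ libraries its 2 differences depend on the prior count of the fit.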

How the results depend on the processing

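The 6 counts of changed genes stayed within 1.5 times of their values under all 17 alternatives. The 5972 genes changed between tissues were 4654 with the stricter filter and 6805 at an adjusted p under 0.05, and 5520 to 5794 when 1 CD103+ library was left out. Without chromosomes X and Y there were 5809. The 3386 higher genes were 2982 to 3203 and the 2586 lower ones 2436 to 2591 with 1 library left out. Differences from CD11b+ DCs numbered 2935 to 3122 and from double-positive DCs 1288 to 1346 in the same fits, and the latter 2002 at an adjusted p under 0.05. Replicate numbers showed no pairing of the CD103+ libraries between tissues. The deviations of same-numbered libraries had r of 0.0198, 0.0159 and 0.0483 and those of other pairs -0.0673 to 0.0529. Pairing of subsets within a tissue was not tested in this way. The third lymph node library had Ddx3y at 58 CPM in CD11b+, 52.2 CPM in double-positive and 0.351 CPM in CD103+ DCs. Without the third lymph node library of both other subsets, which was added after seeing the data, 5850 genes were changed. With a replicate block the counts were 5951 changed, 3364 higher, 2587 lower, 3151 and 1444.

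Of 208 named genes, 187 kept call and direction under all alternatives run. Direction turned for uncalled genes near 0: with total counts Actb -0.09, Batf3 -0.15, Ccl17 -0.12 and Siglech -0.21, and without the filter Siglech -0.06. With 1 library left out Batf3 ran from -0.07 to 0.12, Ccl17 from -0.09 to 0.24, Cd80 from -0.31 to 0.08 and Siglech from -0.21 to 0.60. Calls were lost with total counts by Irf7 (0.91), Lsp1 (0.94), Gm23935 (0.92) and Tap1 (0.80), and with DESeq2 by Pdia3 (-0.97), Ddx3y and Uty, and with the block by Ighv1-15. Mcm6, Mcm7, Pcna and Igha passed the fold threshold in at most 5 alternatives (-1.21 to -1.03). Gm23935 was not called without the third lymph node library (0.97), and Igha was called with total counts and without the third lamina propria library (-1.07). In these fits the 3 libraries of a tissue limit the precision.

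With the 250 bases before the start, promoters of all matched genes held kB letters in 1.06%, ISRE letters in 7.90%, ETS-IRF letters in 7.60% and E2F letters in 2.73%. ISRE letters were in 8.59% and ETS-IRF letters in 6.75% of the higher genes, and ETS-IRF letters in 7.44% of the lower ones.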
